A study of Mus musculus with 10 samples.

Results

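The genes described here encode the enzymes and carriers that take up glucose, split it to pyruvate, make or export lactate, admit pyruvate to the mitochondrion, or divert sugar phosphates into the pentose phosphate pathway and glycogen. They were chosen by symbol from a list of 49, which matched 50 of the 55401 rows of the deposited count table because Aldoa has 2 rows. Of these rows 45, standing for 44 symbols, passed the filter on low counts. Slc2a4, Hk3, Aldoc, Fbp1 and Pygl did not pass it.

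In glycolysis, hexokinase traps glucose as glucose 6-phosphate, phosphofructokinase commits it to breakdown, and the lower steps yield ATP, NADH and pyruvate. Lactate dehydrogenase reduces pyruvate to lactate and so restores NAD+, while pyruvate dehydrogenase sends pyruvate into the tricarboxylic acid cycle unless its kinases switch it off. The oxidative pentose phosphate branch makes NADPH from glucose 6-phosphate, and the non-oxidative branch joins ribose phosphates to glycolytic intermediates. Glial cells such as Schwann cells are known for glycolysis that feeds lactate to axons, and many tumours are known for high glucose use.

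RNA was sequenced from 10 libraries, 5 per group, to compare cells sorted from pancreas with cells sorted from pancreatic ductal adenocarcinoma (PDAC). All came from tamoxifen-inducible KPC mice, strain C57BL/6. KPC names a mouse model of pancreatic cancer in which a recombinase switches on mutant alleles, and the labels give neither the alleles nor the promoter that drives the recombinase. The pancreas libraries, titled Schwann, came from mice that had the solution without tamoxifen, and the tumour libraries, titled TASc, from mice given tamoxifen by i.p. injection at 20 mg/kg on 5 consecutive days from the age of 6 weeks. All tissue was taken at the age of 4 months. Pancreases were digested with hyaluronidase and collagenase and tumours with a dissociation kit, so digestion and group cannot be told apart. Sorting used an antibody that recognises the receptor for nerve growth factor. The labels do not say that each library is a separate animal, so p-values measure the spread between these libraries, which may be technical.

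Defining markers did not bear out the labelled cell type. Of the Schwann lineage markers, Foxd3 and Sox2 were at 0 in every library, Sox10 had 0 to 9 counts, S100b 0 to 20 and the sorted receptor gene Ngfr 0 to 22. Summed Schwann lineage markers stood at 336 to 437 CPM (counts scaled to a common library size) in pancreas and 356 to 395 CPM in tumour, but 98.0% of that sum was Cryab. Summed fibroblast markers stood at 519.5 to 619 CPM in pancreas and 95.4 to 116 CPM in tumour. Thy1 made up 56.9% of that sum, and Pdgfra went the other way, from 10.7 to 15.3 CPM in pancreas to 40.6 to 49.3 CPM in tumour. Summed pericyte and smooth muscle markers stood at 748 to 895 and 550.5 to 572 CPM, with Acta2, Tagln, Pdgfrb and Rgs5 lower in tumour and Cspg4, Notch3, Myh11 and Des higher. Summed non-myelinating Schwann markers, 66.9% of them Apod, stood at 315 to 1129.7 CPM in pancreas and 209 to 229 CPM in tumour. Apod was lower and Ncam1 higher. Acinar markers were near 0, summing to 0.427 to 1.38 CPM in pancreas and 1.53 to 2.73 CPM in tumour, and 92.7% of that was Cela1. Cpa1, Prss1, Prss2 and Amy2a5 were at 0 in every library, and only 1 of the 9 acinar markers passed the low-count filter. Sums of myelinating Schwann, endothelial, ductal, macrophage and erythroid markers overlapped between the groups. Within all of these lists except the erythroid one, members moved in opposite directions. In the endothelial list Cdh5 fell from 311 to 354 CPM to 187 to 198 CPM and Flt1 rose from 147 to 197 CPM to 312 to 359 CPM. In the ductal list Lcn2 rose from 425 to 502 CPM to 599 to 732 CPM. Msln fell from 585 to 690 CPM to 419 to 509 CPM, and Cftr, Krt19, Krt18, Krt7 and Muc1 were lower too. Krt18, Krt7 and Muc1 were low throughout, at no more than 0.649, 0.870 and 1.95 CPM in any library. Epcam had 0 to 11 counts, Krt8 0 to 7 and Cdh1 0 to 14. Pmp22 and Ncmap were lower and Mal and Fa2h higher in the myelinating list, and Cd14 lower and Cd68 higher in the macrophage list. Few counts were seen for the endothelial markers Pecam1 (7 to 44) and Cldn5 (0 to 3) and the macrophage marker Ptprc (0 to 18). The macrophage markers Adgre1 and C1qa were at 0 in every library. The part of these differences in the results below was not tested, and in bulk samples fewer cells of a type and less RNA per cell cannot be told apart. Total counts ran from 58242278 to 89816499 per library. Pancreas replicates 3 and 4 stood apart: they were the highest pair of pancreas libraries for 19 of the 44 tested enzyme genes (43.2%, against 20.9% of all tested genes) and the lowest pair for 7 (15.9%, against 19.6%).

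Most glycolytic genes were higher in the tumour libraries, and the genes of the oxidative pentose phosphate branch were not. Of 44 tested symbols, 25 rose in tumour, 7 fell and 12 did not pass an adjusted p of 0.05 in edgeR's quasi-likelihood test over all genes. The same threshold was passed by 65.8% of the 17548 tested genes, 32.4% in the higher and 33.4% in the lower direction. The median log2 fold change was 0.31 for the 44 symbols and 0.00 for all tested genes. All 5 tumour libraries lay above all 5 pancreas libraries for 24 symbols and below them for 7, where 27.2% and 27.4% of all tested genes did so (54.6% in either direction). The enzyme and carrier genes held 0.82 to 0.917% of all counts in pancreas and 1.21 to 1.26% in tumour. Without pancreas replicates 3 and 4, 26 symbols were higher and 8 lower. These groups of libraries differ over most genes measured, so the counts are read against that background.

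**Figure D1:**
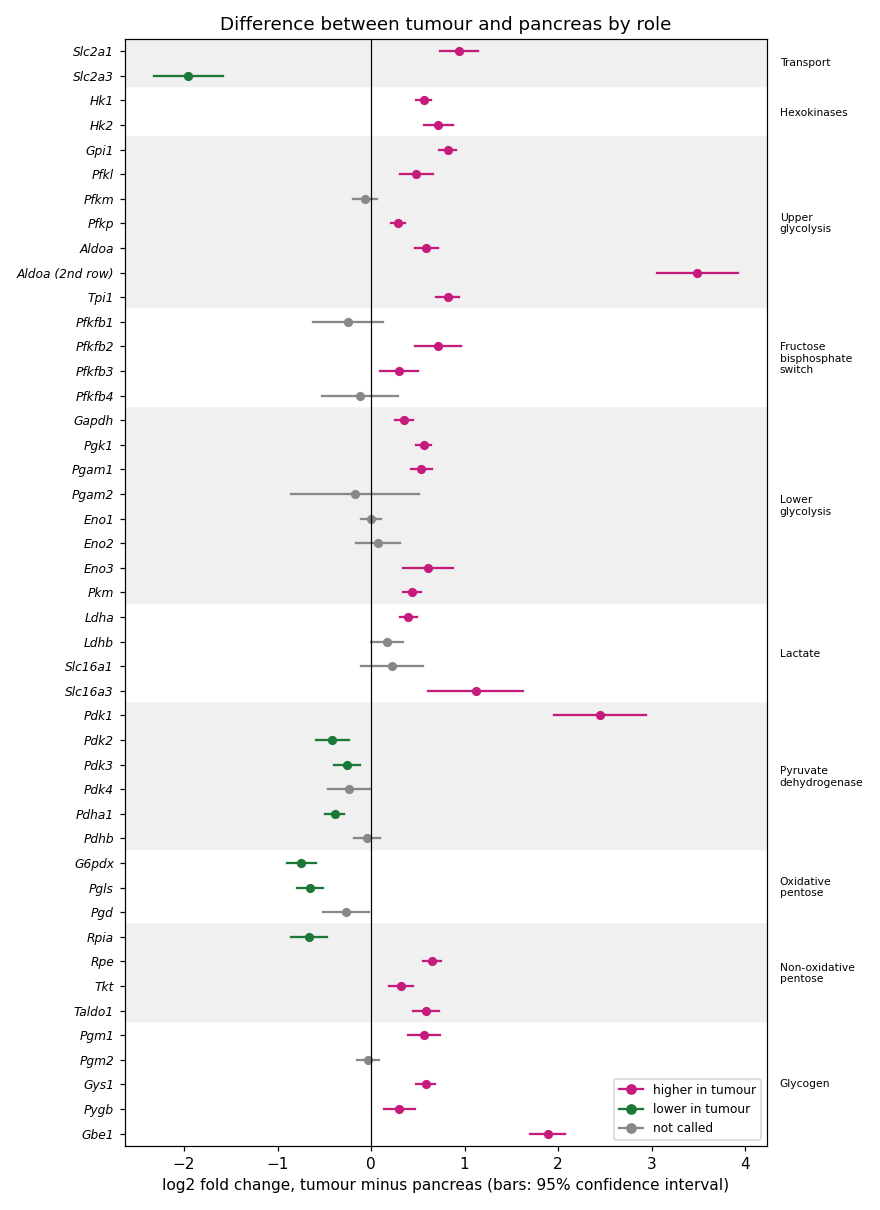
Log2 fold change of each tested row, tumour minus pancreas, by role of the enzyme, with bars for the 95% confidence interval of edgeR's fit on 5 against 5 libraries. Points are coloured by call, and 25 symbols lie on the higher side, with the second Aldoa row, Pdk1 and Gbe1 farthest right and Slc2a3 farthest left.

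Start-site windows are shown for 6 of these genes because their rows moved most or stand for a branch: Pgk1, Ldha and Slc2a1 in glycolysis, Pdk1 at pyruvate entry, Gbe1 in glycogen and G6pdx in the pentose phosphate pathway. Each runs from 250 bases before to 50 bases after a RefSeq start in GRCm38.p6 and is read 5′ to 3′ on the strand given. Capitals mark ACGTG or GCGTG on either strand (reverse complements CACGT and CACGC), the letters known as the core of the hypoxia response element. The palindrome CACGTG counts as ACGTG on both strands.
Pgk1 chrX:106186850-106187149 +: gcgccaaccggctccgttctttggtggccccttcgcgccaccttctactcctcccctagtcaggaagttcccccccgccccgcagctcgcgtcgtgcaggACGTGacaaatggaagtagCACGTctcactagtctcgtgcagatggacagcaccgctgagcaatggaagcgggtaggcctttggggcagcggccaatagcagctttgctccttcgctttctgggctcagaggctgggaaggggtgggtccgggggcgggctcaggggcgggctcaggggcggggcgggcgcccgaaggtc
Ldha chr7:46845554-46845853 +: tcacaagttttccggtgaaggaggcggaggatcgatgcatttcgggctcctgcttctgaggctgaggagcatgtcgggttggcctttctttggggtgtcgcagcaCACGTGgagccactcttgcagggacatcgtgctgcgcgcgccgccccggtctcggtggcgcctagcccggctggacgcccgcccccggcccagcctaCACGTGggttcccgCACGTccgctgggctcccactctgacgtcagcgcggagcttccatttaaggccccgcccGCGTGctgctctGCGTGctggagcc
Slc2a1 chr4:119108495-119108794 +: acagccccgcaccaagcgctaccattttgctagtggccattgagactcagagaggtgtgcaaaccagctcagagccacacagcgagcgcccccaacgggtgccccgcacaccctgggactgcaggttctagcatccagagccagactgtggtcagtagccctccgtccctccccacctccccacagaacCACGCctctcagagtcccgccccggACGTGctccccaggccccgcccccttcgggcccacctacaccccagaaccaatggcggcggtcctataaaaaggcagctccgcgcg
Pdk1 chr2:71872974-71873273 +: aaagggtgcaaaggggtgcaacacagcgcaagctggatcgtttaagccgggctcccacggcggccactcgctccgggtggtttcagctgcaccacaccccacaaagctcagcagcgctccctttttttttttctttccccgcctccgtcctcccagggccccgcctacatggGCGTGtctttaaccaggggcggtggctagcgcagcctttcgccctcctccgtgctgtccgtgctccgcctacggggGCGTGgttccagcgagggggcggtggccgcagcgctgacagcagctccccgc
Gbe1 chr16:70313699-70313998 +: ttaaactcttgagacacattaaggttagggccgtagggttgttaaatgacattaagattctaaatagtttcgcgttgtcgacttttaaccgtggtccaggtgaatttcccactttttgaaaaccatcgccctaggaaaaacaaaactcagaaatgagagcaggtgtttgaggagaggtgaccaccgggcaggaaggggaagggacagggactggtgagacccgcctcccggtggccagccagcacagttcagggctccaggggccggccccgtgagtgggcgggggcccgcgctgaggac
G6pdx chrX:74428831-74429130 −: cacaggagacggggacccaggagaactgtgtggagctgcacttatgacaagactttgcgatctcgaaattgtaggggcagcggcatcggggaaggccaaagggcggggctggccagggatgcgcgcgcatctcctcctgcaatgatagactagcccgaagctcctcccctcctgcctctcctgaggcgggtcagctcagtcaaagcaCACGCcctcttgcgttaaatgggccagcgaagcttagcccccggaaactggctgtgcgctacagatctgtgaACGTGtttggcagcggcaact

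The Pgk1 window holds ACGTG 2 times over both strands and the Ldha window 5 times, of which the 2 CACGTG palindromes account for all but 1. Slc2a1 and G6pdx hold ACGTG and GCGTG 1 time each, Pdk1 holds GCGTG 2 times and no ACGTG, and Gbe1 holds neither. At least 1 ACGTG was found in 41.8% of 67 windows of the enzyme and carrier genes, in 24.5% of the 14611 windows of tested genes and in 19.6% of all 32851 windows. GCGTG was found in 53.7%, 48.1% and 32.4% of the same windows, and CACGTG, which contains ACGTG, in 8.96%, 9.46% and 7.15%. With 1 window per symbol, ACGTG was in 10 of the 25 genes that were higher, 3 of 6 that were lower and 4 of 12 not called. GCGTG was in 12, 5 and 8 of the same genes. The genes that fell held these letters too, and a match is a description of the window, not a site. Slc2a3 and Slc2a4 were not matched in the table of windows.

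Of the 3 listed glucose carrier genes, the 2 that passed the filter moved in opposite directions, with Slc2a3 far below Slc2a1 in level. Gene coordinates are on the mm10 build. Slc2a1 (GLUT1, chr4:119108711-119137983, + strand), the basal glucose carrier of many cells, stood at 42.5, 44.9, 59.9, 58.1 and 52.4 CPM in pancreas replicates 1 to 5 and 98.8, 99.9, 96.6, 88.6 and 110.1 CPM in tumour replicates 1 to 5. The tumour libraries all lay above the pancreas libraries, and the gene rose 1.92-fold (log2 fold change 0.94 ± 0.09 (SE), adjusted p = 1.2e-06). Slc2a3 (GLUT3, chr6:122727809-122801640, − strand), a high-affinity carrier best known from neurons, moved the other way, from 4.86, 6.26, 4.26, 5.10 and 4.65 CPM in pancreas replicates 1 to 5 to 1.56, 1.49, 1.01, 1.12 and 1.29 CPM in tumour replicates 1 to 5. Its groups did not overlap (log2 fold change -1.96 ± 0.17 (SE), adjusted p = 2.8e-07). The ratio of Slc2a3 to Slc2a1, both per exon length, was 0.0555, 0.0675, 0.0345, 0.0426 and 0.0430 in pancreas replicates 1 to 5 and 0.00769, 0.00725, 0.00510, 0.00613 and 0.00569 in tumour replicates 1 to 5. It fell by 2.91 on the log2 scale (exact two-sided permutation p = 0.00794, adjusted p = 0.0222 over 14 ratios tested). Slc2a4 (GLUT4), the insulin-responsive carrier, reached at most 0.195 CPM in any library.

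Both measured hexokinases rose. Hk1, the widely expressed form, stood at 127, 123, 133, 132 and 131 CPM in pancreas replicates 1 to 5 and 185, 191, 195, 189 and 192 CPM in tumour replicates 1 to 5. Hk2, the inducible form of muscle and many tumours, stood at 49.8, 48.3, 38.7, 41.6 and 47.6 CPM in pancreas replicates 1 to 5 and 70.1, 76.7, 70.5, 73.5 and 81.0 CPM in tumour replicates 1 to 5. Neither gene had overlapping groups (Hk1 log2 fold change 0.56 ± 0.04 (SE), adjusted p = 2.5e-08; Hk2 log2 fold change 0.72 ± 0.07 (SE), adjusted p = 1.2e-06). Their ratio per exon length, Hk2 to Hk1, was 0.502 ± 0.0663 in pancreas and 0.557 ± 0.0325 in tumour, a log2 difference of 0.16 that did not pass (exact permutation p = 0.159, adjusted p = 0.202). Hk3 was near 0, at no more than 0.0965 CPM.

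Of the 6 tested genes of upper glycolysis, 5 rose and none fell, with a median log2 fold change of 0.54. Gpi1 (chr7:34201330-34230336, − strand), which turns glucose 6-phosphate into fructose 6-phosphate, gave the largest rise among them apart from the second Aldoa row. It stood at 500.2, 534, 529, 538 and 559.9 CPM in pancreas replicates 1 to 5 and 938, 912, 911, 946 and 989.7 CPM in tumour replicates 1 to 5. The tumour values were 1.76-fold higher, far outside the spread of either group (log2 fold change 0.82 ± 0.04 (SE), adjusted p = 2.8e-09). Tpi1, which interconverts the triose phosphates, rose by as much, from 404 ± 36.2 to 712 ± 18.0 CPM (log2 fold change 0.82 ± 0.06 (SE), adjusted p = 3.9e-08).

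The 3 phosphofructokinase genes, which encode the liver, muscle and platelet subunits of the committing enzyme, differed in their change. Pfkl stood at 99.0 ± 13.7 CPM in pancreas and 138 ± 7.54 CPM in tumour (SD, n = 5; log2 fold change 0.48 ± 0.08 (SE), adjusted p = 1.5e-04). Pfkp stood at 165, 163, 165, 159.7 and 166 CPM in pancreas replicates 1 to 5 and 198, 194, 203, 201 and 203 CPM in tumour replicates 1 to 5. Its rise was small but clear of the spread within groups (log2 fold change 0.29 ± 0.03 (SE), adjusted p = 5.8e-06). Pfkm did not pass, at 51.8 ± 3.45 CPM in pancreas and 49.5 ± 3.08 CPM in tumour (log2 fold change -0.07, adjusted p = 0.349, 95% confidence interval -0.19 to 0.06). The ratio of Pfkm to Pfkl per exon length was 1.08, 1.18, 0.992, 0.955 and 1.07 in pancreas replicates 1 to 5 and 0.714, 0.747, 0.667, 0.830 and 0.632 in tumour replicates 1 to 5. It fell by 0.56 on the log2 scale without overlap (exact permutation p = 0.00794, adjusted p = 0.0222), and the ratio of Pfkp to Pfkl did not pass (log2 difference -0.20, exact permutation p = 0.103).

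Aldoa, the main aldolase of muscle and many other cells, which splits fructose bisphosphate, has a main row at chr7:126795234-126800751, − strand, and a second at chr7:126800790-126809108, − strand, just upstream of it. The main row stood at 876, 972, 1045, 1061 and 1055 CPM in pancreas replicates 1 to 5 and 1483, 1549, 1489, 1437 and 1586 CPM in tumour replicates 1 to 5 (log2 fold change 0.59 ± 0.06 (SE), adjusted p = 7.5e-07). The second row was low in every library, at 1.32, 0.841, 1.16, 1.33 and 0.591 CPM in pancreas replicates 1 to 5 and 12.8, 11.6, 12.6, 10.1 and 11.5 CPM in tumour replicates 1 to 5. Its tumour levels were 11.2-fold higher (log2 fold change 3.49 ± 0.20 (SE), adjusted p = 5.9e-09), the steepest rise among the 45 tested rows of the listed genes, with exons that overlap no other annotated gene. Aldoc, the brain form, reached at most 0.195 CPM.

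The PFKFB enzymes make and break fructose 2,6-bisphosphate, the activator of phosphofructokinase. Pfkfb2, the heart form, rose from 38.1 ± 7.11 to 62.6 ± 5.99 CPM (log2 fold change 0.72 ± 0.11 (SE), adjusted p = 9.4e-05). Pfkfb3, the inducible form with the highest kinase activity, stood at 20.6, 22.8, 30.2, 27.4 and 23.3 CPM in pancreas replicates 1 to 5 and 30.5, 33.0, 28.4, 29.3 and 31.8 CPM in tumour replicates 1 to 5. The groups overlapped, with pancreas replicate 3 above 2 of the tumour libraries, and the rise was small (log2 fold change 0.30 ± 0.10 (SE), adjusted p = 0.0135). Without pancreas replicates 3 and 4 it was 0.45 (adjusted p = 1.3e-04).

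Pfkfb4, a form first described in testis, stood at 33.2, 39.7, 19.5, 23.6 and 41.4 CPM in pancreas replicates 1 to 5 and 28.7, 26.3, 32.5, 30.1 and 27.5 CPM in tumour replicates 1 to 5. Pancreas replicates 3 and 4 were below every tumour library and the other pancreas libraries above, so the groups had no common direction (log2 fold change -0.12, adjusted p = 0.594, 95% confidence interval -0.53 to 0.29). Leaving out those 2 libraries turned it into a called fall (log2 fold change -0.40, adjusted p = 0.0012). Pfkfb1, the liver form, was low and was not called (2.56 ± 0.173 CPM in pancreas and 2.16 ± 0.473 CPM in tumour, log2 fold change -0.25, adjusted p = 0.224). Neither the ratio of Pfkfb4 to Pfkfb3 nor that of Pfkfb2 to Pfkfb3 passed (log2 differences -0.37 and 0.42, exact permutation p = 0.254 and 0.135).

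**Figure D2:**
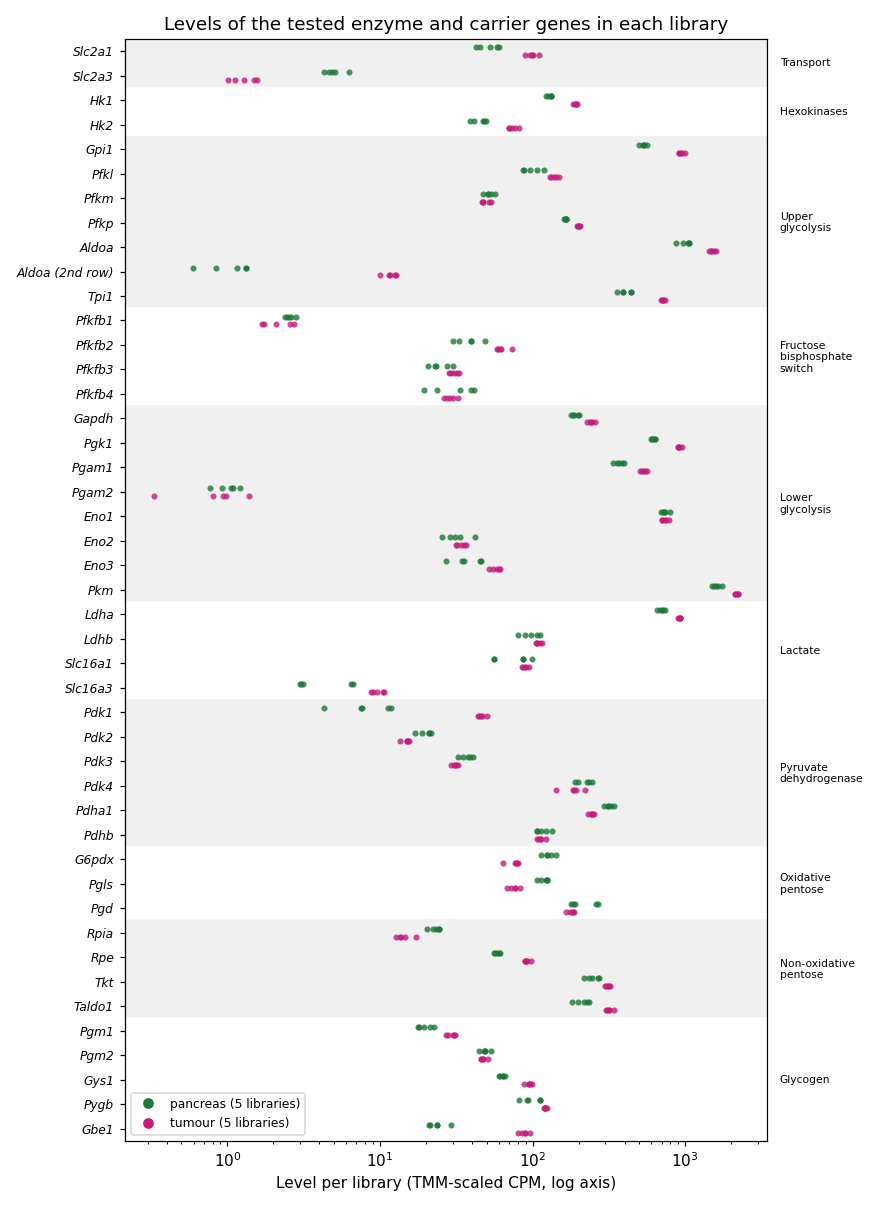
Level of each tested row in every library in TMM-scaled CPM on a log axis, grouped by role, with 5 pancreas and 5 tumour libraries. Tumour points lie right of all pancreas points for 24 symbols and left of them for 7, and Eno1 shows the groups on top of each other near 734 CPM.

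In lower glycolysis 5 of 8 genes rose and none fell, with a median log2 fold change of 0.40. Gapdh, which oxidises glyceraldehyde 3-phosphate and makes NADH, stood at 200.3, 179, 186, 198 and 183 CPM in pancreas replicates 1 to 5 and 239, 255, 242, 246 and 228 CPM in tumour replicates 1 to 5 in its own row (log2 fold change 0.35 ± 0.05 (SE), adjusted p = 1.3e-05). How reads were divided between Gapdh and its near-identical copies is uncertain. The annotation has 79 other genes with at least 95% identity to it over 150 bases or more, 70 of them had counts, and together they held 1558315 counts against 160744 in the Gapdh row. With the copies added, the level was 2023, 2054, 2045, 2146 and 2094 CPM in pancreas replicates 1 to 5 and 2551, 2609, 2517, 2470.4 and 2546 CPM in tumour replicates 1 to 5. The groups still did not overlap (log2 fold change 0.29 ± 0.04 (SE), adjusted p = 1.7e-05), and the Gapdh row held 8.71 to 9.90% of the sum in pancreas and 8.95 to 9.95% in tumour. The absolute level of the Gapdh row is therefore uncertain, while the direction was the same by either count.

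Pgk1 (chrX:106187100-106203699, + strand), which makes the first ATP of the pathway, stood at 629.9, 616, 604, 637 and 601 CPM in pancreas replicates 1 to 5 and 907, 952, 907, 894 and 903 CPM in tumour replicates 1 to 5. Every tumour library lay above every pancreas library (log2 fold change 0.56 ± 0.04 (SE), adjusted p = 2.7e-08). Pgam1, the main phosphoglycerate mutase outside muscle, rose as well (369 ± 25.1 CPM in pancreas and 535 ± 20.3 CPM in tumour; log2 fold change 0.54 ± 0.05 (SE), adjusted p = 6.9e-07), and Pgam2, the muscle form, was not called (at 1.01 ± 0.167 CPM in pancreas and 0.889 ± 0.380 CPM in tumour, log2 fold change -0.17, adjusted p = 0.644).

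Eno1 (chr4:150236721-150248879, + strand), the common enolase, was the exception among the abundant glycolytic genes. It stood at 714, 722, 738, 798 and 695 CPM in pancreas replicates 1 to 5 and 734, 777, 754, 703 and 700.3 CPM in tumour replicates 1 to 5. The groups overlapped throughout, and the confidence interval of the difference was narrow around 0 (log2 fold change 0.00, adjusted p = 0.983, 95% confidence interval -0.10 to 0.11). Adding the counts of its near-identical copies, 8.63% of its own, left the difference at 0.00. The interval was -0.10 to 0.10 with the copies.

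Eno3, the muscle enolase, rose from 37.6 ± 7.91 to 57.4 ± 3.85 CPM (log2 fold change 0.61 ± 0.12 (SE), adjusted p = 7.7e-04). Eno2, the neuronal form, did not pass (32.1 ± 6.11 CPM in pancreas and 33.9 ± 2.27 CPM in tumour, log2 fold change 0.08, adjusted p = 0.55). The ratio of Eno3 to Eno1 per exon length was 0.154, 0.148, 0.190, 0.177 and 0.120 in pancreas replicates 1 to 5 and 0.255, 0.220, 0.250, 0.257 and 0.229 in tumour replicates 1 to 5. It was higher in all 5 tumour libraries by a log2 difference of 0.63 (exact permutation p = 0.00794, adjusted p = 0.0222). Pkm, the pyruvate kinase of most tissues, had the highest CPM of any single row here, below Gapdh with its copies added, at 1501, 1548, 1652, 1738 and 1598 CPM in pancreas replicates 1 to 5 and 2209, 2199.8, 2135, 2133 and 2202 CPM in tumour replicates 1 to 5. It rose without overlap (log2 fold change 0.44 ± 0.05 (SE), adjusted p = 2.0e-06). Both of its main splice forms are counted in this row, so their balance was not analysed here.

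Of the lactate genes, Ldha and the exporter gene rose. Ldha (chr7:46841475-46855627, + strand), the subunit that favours lactate formation, stood at 704, 718, 651, 682 and 735 CPM in pancreas replicates 1 to 5 and 904, 928, 930.2, 898 and 930.0 CPM in tumour replicates 1 to 5 (log2 fold change 0.40 ± 0.04 (SE), adjusted p = 2.0e-06). Ldhb, the subunit that favours lactate use, stood at 79.9, 89.0, 107, 112 and 97.1 CPM in pancreas replicates 1 to 5 and 115, 105, 112, 107 and 107 CPM in tumour replicates 1 to 5. Pancreas replicates 3 and 4 reached the tumour range, and Ldhb was not called (log2 fold change 0.17, adjusted p = 0.0712, 95% confidence interval 0.00 to 0.34). It passed as higher without them (log2 fold change 0.29, adjusted p = 0.00117). The ratio of Ldhb to Ldha per exon length was 0.294 ± 0.0490 in pancreas and 0.251 ± 0.0120 in tumour and did not pass (log2 difference -0.22, exact permutation p = 0.103, adjusted p = 0.202).

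Slc16a3 (MCT4, chr11:120948480-120960868, + strand), known as the lactate exporter of glycolytic cells, stood at 3.01, 3.14, 6.45, 6.66 and 3.05 CPM in pancreas replicates 1 to 5 and 9.56, 10.7, 9.01, 8.75 and 10.5 CPM in tumour replicates 1 to 5. Every tumour library was above every pancreas library, and pancreas replicates 3 and 4 lay at about 2 times the level of the other 3 (log2 fold change 1.12 ± 0.24 (SE), adjusted p = 9.5e-04). Without them the log2 fold change was 1.65. Slc16a1 (MCT1), a carrier for lactate in both directions, stood at 86.2, 86.6, 55.8, 55.7 and 98.8 CPM in pancreas replicates 1 to 5 and 86.9, 91.1, 89.6, 85.2 and 94.2 CPM in tumour replicates 1 to 5. Here the same 2 pancreas libraries were the low ones and the other 3 lay within or just above the tumour range, and no call was made (log2 fold change 0.22, adjusted p = 0.215, 95% confidence interval -0.11 to 0.55). Per exon length the ratio of Slc16a3 to Slc16a1 was 0.0291, 0.0303, 0.0963, 0.0996 and 0.0257 in pancreas replicates 1 to 5 and 0.0916, 0.0977, 0.0838, 0.0855 and 0.0931 in tumour replicates 1 to 5. Pancreas replicates 3 and 4 lay with the tumour libraries in this ratio, and it did not pass (exact permutation p = 0.159).

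At the entry of pyruvate to the mitochondrion, 1 kinase gene rose while 3 genes fell. Pdk1 (chr2:71873224-71903858, + strand), a kinase that switches pyruvate dehydrogenase off, stood at 7.49, 7.66, 11.7, 11.2 and 4.32 CPM in pancreas replicates 1 to 5 and 46.8, 46.1, 44.6, 50.4 and 43.7 CPM in tumour replicates 1 to 5. It rose 5.45-fold, with the lowest tumour library at more than 3 times the highest pancreas library (log2 fold change 2.45 ± 0.22 (SE), adjusted p = 1.7e-06). Pdk2 (chr11:95026258-95041354, − strand), the widely expressed kinase, stood at 16.9, 20.9, 21.6, 18.9 and 20.8 CPM in pancreas replicates 1 to 5 and 15.1, 15.0, 15.3, 15.5 and 13.4 CPM in tumour replicates 1 to 5. It was lower in all 5 tumour libraries (log2 fold change -0.42 ± 0.08 (SE), adjusted p = 4.7e-04), as was Pdk3 (37.0 ± 3.30 CPM in pancreas and 30.9 ± 1.19 CPM in tumour; log2 fold change -0.26 ± 0.07 (SE), adjusted p = 0.00332). Scaling by library size alone ended the call for Pdk3 (log2 fold change -0.16, adjusted p = 0.0516). Pdk4, the kinase induced by fasting, was the most abundant of the 4 per exon length and did not pass (219 ± 23.1 CPM in pancreas and 186 ± 28.2 CPM in tumour, log2 fold change -0.24, adjusted p = 0.062, 95% confidence interval -0.46 to -0.01).

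The balance between Pdk1 and Pdk2 differed between the groups. Pdk1 to Pdk2 per exon length was 0.180, 0.149, 0.221, 0.242 and 0.0845 in pancreas replicates 1 to 5 and 1.26, 1.25, 1.18, 1.32 and 1.32 in tumour replicates 1 to 5. The log2 difference was 2.94 with no overlap (exact permutation p = 0.00794, adjusted p = 0.0222). Pdk3 to Pdk2 and Pdk4 to Pdk2 did not pass (log2 differences 0.16 and 0.17, exact permutation p = 0.183 and 0.119).

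Pdha1, the catalytic subunit that the kinases phosphorylate, fell from 316 ± 18.3 to 242 ± 8.16 CPM (log2 fold change -0.39 ± 0.05 (SE), adjusted p = 6.4e-06). Pdhb, its partner subunit, did not pass (116 ± 11.6 CPM in pancreas and 113 ± 5.93 CPM in tumour, log2 fold change -0.05, adjusted p = 0.542, 95% confidence interval -0.19 to 0.09). The ratio of Pdk1 to Pdha1 per exon length rose from 0.00707 to 0.0174 in pancreas to 0.0877 to 0.0960 in tumour (log2 difference 2.92, exact permutation p = 0.00794, adjusted p = 0.0222). Beside these, genes encoded by the mitochondrial genome held 2.27 to 2.80% of counts in pancreas and 1.33 to 1.51% in tumour.

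**Figure D3:**
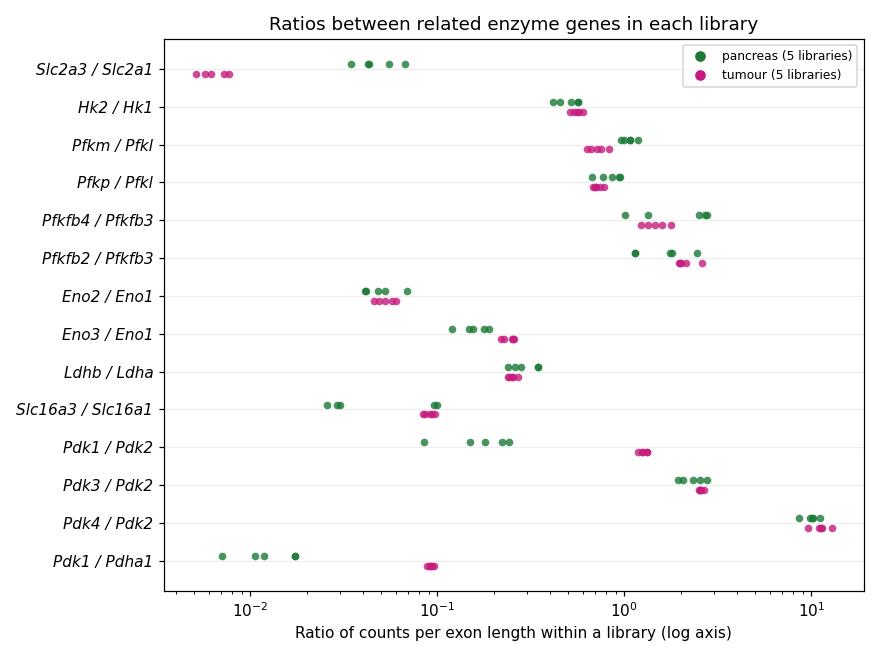
Ratio of counts per exon length between 14 pairs of related genes in each of the 5 pancreas and 5 tumour libraries, on a log axis. The groups do not overlap for Slc2a3/Slc2a1, Pfkm/Pfkl, Eno3/Eno1, Pdk1/Pdk2 and Pdk1/Pdha1, and pancreas libraries form 2 clusters for Slc16a3/Slc16a1.

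Of the 3 genes of the oxidative pentose phosphate branch, 2 were lower, against the direction of most glycolytic genes. None was higher, and the median log2 fold change was -0.65. G6pdx (chrX:74409483-74429194, − strand), glucose 6-phosphate dehydrogenase and the NADPH-making entry of the branch, stood at 124, 133, 124, 113 and 141 CPM in pancreas replicates 1 to 5 and 80.6, 78.1, 76.5, 79.0 and 63.8 CPM in tumour replicates 1 to 5. The groups did not overlap (log2 fold change -0.75 ± 0.07 (SE), adjusted p = 6.8e-07). Pgls (chr8:71592176-71601092, + strand), which hydrolyses the lactone made by that enzyme, stood at 106, 123, 113, 125 and 125 CPM in pancreas replicates 1 to 5 and 76.7, 76.7, 82.9, 72.5 and 67.5 CPM in tumour replicates 1 to 5. It too was lower in all tumour libraries (log2 fold change -0.65 ± 0.06 (SE), adjusted p = 6.7e-07). Pgd, the second NADPH-making enzyme, stood at 178, 189, 259.5, 267 and 184 CPM in pancreas replicates 1 to 5 and 185, 182, 186, 167 and 176 CPM in tumour replicates 1 to 5. Pancreas replicates 3 and 4 were well above every other library, the rest overlapped, and no call was made (log2 fold change -0.27, adjusted p = 0.0518). Without them the log2 fold change was -0.05.

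Of the 4 non-oxidative genes 3 rose and 1 fell. Rpia (chr6:70765720-70792232, − strand), which isomerises ribulose 5-phosphate to ribose 5-phosphate, stood at 24.5, 23.1, 20.2, 22.2 and 24.5 CPM in pancreas replicates 1 to 5 and 12.8, 17.3, 14.7, 13.8 and 13.6 CPM in tumour replicates 1 to 5 (log2 fold change -0.67 ± 0.09 (SE), adjusted p = 2.0e-05). Rpe, the epimerase that takes the same substrate toward transketolase, rose (58.5 ± 2.04 CPM in pancreas and 91.7 ± 3.44 CPM in tumour; log2 fold change 0.65 ± 0.04 (SE), adjusted p = 2.4e-08), so the 2 enzymes that share this substrate moved in opposite directions. Tkt (chr14:30548359-30574720, + strand), transketolase, stood at 218, 234, 247, 268 and 272 CPM in pancreas replicates 1 to 5 and 302, 322, 297, 310.0 and 315 CPM in tumour replicates 1 to 5. Its rise was modest and without overlap (log2 fold change 0.32 ± 0.06 (SE), adjusted p = 2.9e-04). Taldo1, transaldolase, rose further (212 ± 21.8 CPM in pancreas and 318 ± 14.2 CPM in tumour; log2 fold change 0.59 ± 0.07 (SE), adjusted p = 3.2e-06).

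The ratio between 2 of the genes whose enzymes use glucose 6-phosphate, taken within each library, differed between the groups. G6pdx to Gpi1 per exon length was 0.442 to 0.529 in pancreas and 0.135 to 0.18 in tumour. Tkt to G6pdx was 0.737 to 0.989 in pancreas and 1.57 to 2.07 in tumour. Both ratios were chosen after their values were seen and were not tested.

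Fbp1 (chr13:62864753-62888282, − strand), the gluconeogenic bisphosphatase of liver and kidney that opposes phosphofructokinase, had 0, 11, 3, 4 and 0 counts in pancreas replicates 1 to 5 and 0 in every tumour library. At these counts no difference could be read.

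Glycogen genes were mostly higher, with 4 of 5 tested rising, none falling and a median log2 fold change of 0.57. Gbe1 (chr16:70313949-70569716, + strand), which adds the branches to glycogen, stood at 21.2, 23.8, 23.6, 20.8 and 29.2 CPM in pancreas replicates 1 to 5 and 85.5, 88.9, 89.0, 79.7 and 95.9 CPM in tumour replicates 1 to 5. It rose 3.70-fold, the steepest rise among these rows after the second Aldoa row and Pdk1 (log2 fold change 1.89 ± 0.09 (SE), adjusted p = 9.2e-10). Gys1, the glycogen synthase of tissues other than liver, rose from 63.2 ± 2.35 to 94.6 ± 4.12 CPM (log2 fold change 0.58 ± 0.05 (SE), adjusted p = 9.6e-08). Pygb, the brain form of the phosphorylase that breaks glycogen down, rose less (98.2 ± 13.2 CPM in pancreas and 121 ± 1.49 CPM in tumour; log2 fold change 0.30 ± 0.08 (SE), adjusted p = 0.00316). Pgm1, which links glucose 6-phosphate to the glycogen precursor, rose (19.8 ± 2.13 CPM in pancreas and 29.3 ± 1.82 CPM in tumour; log2 fold change 0.57 ± 0.08 (SE), adjusted p = 2.6e-05), and Pgm2, named as its relative, did not pass (48.7 ± 3.05 CPM in pancreas and 47.5 ± 2.25 CPM in tumour, log2 fold change -0.04, adjusted p = 0.578, 95% confidence interval -0.16 to 0.08). Pygl, the liver phosphorylase, reached at most 0.208 CPM.

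Between genes, levels were compared per kilobase of annotated exon, with Gapdh set aside because the level of its row is uncertain. The length is the union of all annotated exons, which can exceed the transcript expressed, and the SDs do not cover that error. In pancreas the order began with Aldoa at 344 ± 27.2, Pkm at 321 ± 18.4 and Pgk1 at 275 ± 7.06 CPM per kilobase. The ranges given by the SDs of Aldoa and Pkm overlapped, but the genes were not compared within each library. Ldha at 211 ± 9.85, Pgam1 at 186 ± 12.7, Tpi1 at 147 ± 13.1 and Eno1 at 136 ± 7.32 CPM per kilobase followed, and the ranges given by the SDs of Tpi1 and Eno1 overlapped. In tumour Aldoa stood at 518 ± 20.1, Pkm at 435 ± 7.64 and Pgk1 at 407 ± 10.1 CPM per kilobase, in the same order. The ranges given by these SDs did not overlap. Tpi1 at 259 ± 6.53 there stood clear of Eno1 at 136 ± 6.12 CPM per kilobase. The enzyme genes varied less among the tumour libraries, with a median coefficient of variation of 4.99% against 9.48% among the pancreas libraries, as did all tested genes with 8.63% against 14.1%.

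Exons shared with other genes touch some of these values. The library kit does not mark strand, so genes on the opposite strand are included. At least 10% of the exon length was shared by G6pdx with Ikbkg (13.6%), Gpi1 with Gm26762 (11.5%), Pdha1 with Map3k15 (16.1%), Pgls with Fam129c (20.6%), Pkm with Gm49759 (15.3%) and Rpe with Kansl1l (17.9%). The same held for Pfkfb2 with Gm29427 (17.4%), Pfkm with Gm26513 (10.2%) and Pgm1 with Itgb3bp (13.6%). Fam129c, Gm49759, Gm29427 and Gm26513 lie on the same strand as the gene they overlap, and the others on the opposite strand.

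Other genes of these and adjoining pathways were counted from 10 lists of 117 genes, of which 103 passed the filter. They divided evenly, with 37 higher, 38 lower, 28 not called and a median log2 fold change of -0.03, close to the background. The further glycogen genes leaned the way of the glycogen enzymes above, with 11 of 16 higher, 3 lower and a median of 0.57. Stbd1, which binds glycogen and is known for taking it to lysosomes, rose 13.4-fold (3.51 ± 1.18 CPM in pancreas and 47.1 ± 3.56 CPM in tumour; log2 fold change 3.75 ± 0.21 (SE), adjusted p = 1.8e-08). Ppp1r3b, a subunit that brings protein phosphatase to glycogen, rose 2.53-fold (log2 fold change 1.34 ± 0.12 (SE), adjusted p = 2.9e-07).

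Among 18 other sugar transporters and glycolytic isoenzymes 6 rose and 5 fell. Ldhd, the mitochondrial D-lactate dehydrogenase, rose (13.1 ± 1.69 CPM in pancreas and 37.3 ± 2.00 CPM in tumour; log2 fold change 1.51 ± 0.09 (SE), adjusted p = 6.3e-09), and so did G6pc3, the widely expressed glucose 6-phosphatase (log2 fold change 0.68 ± 0.08 (SE), adjusted p = 4.5e-06). Slc2a9, a urate carrier of the glucose transporter family, fell (log2 fold change -0.74 ± 0.11 (SE), adjusted p = 5.2e-05). Of 3 other pentose phosphate enzymes 2 rose and 1 fell. Those that rose were Shpk, the sedoheptulose kinase (5.03 ± 0.795 CPM in pancreas and 11.4 ± 1.35 CPM in tumour; log2 fold change 1.17 ± 0.13 (SE), adjusted p = 2.8e-06), and H6pd, which makes NADPH in the endoplasmic reticulum (149 ± 16.3 CPM in pancreas and 194 ± 12.4 CPM in tumour; log2 fold change 0.38 ± 0.07 (SE), adjusted p = 3.2e-04). H6pd moved opposite to G6pdx, its counterpart in the cytosol.

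Genes that pass pyruvate and carbon through the mitochondrion were mixed. Of 12 genes of mitochondrial pyruvate entry 5 rose and 4 fell. Me2, the mitochondrial malic enzyme that makes pyruvate with NADH, fell (104 ± 7.02 CPM in pancreas and 50.1 ± 3.24 CPM in tumour; log2 fold change -1.06 ± 0.06 (SE), adjusted p = 4.9e-09). Pdpr, a regulator of pyruvate dehydrogenase phosphatase, rose (23.5 ± 4.24 CPM in pancreas and 45.8 ± 1.29 CPM in tumour; log2 fold change 0.96 ± 0.10 (SE), adjusted p = 2.3e-06), and Me3, the mitochondrial malic enzyme that makes NADPH, rose from a low level (log2 fold change 0.73 ± 0.17 (SE), adjusted p = 0.00212). Mpc1 and Mpc2, the subunits of the pyruvate carrier, did not pass (log2 fold changes 0.15 and 0.12).

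In the tricarboxylic acid cycle 8 of 17 genes fell and 4 rose. Idh3a and Idh3g, subunits of the NAD-linked isocitrate dehydrogenase, both fell (Idh3a log2 fold change -0.87 ± 0.05 (SE), adjusted p = 8.6e-09; Idh3g log2 fold change -0.59 ± 0.07 (SE), adjusted p = 5.2e-06). Idh2, the mitochondrial NADP-linked enzyme for the same substrate, rose (93.6 ± 11.6 CPM in pancreas and 152 ± 4.99 CPM in tumour; log2 fold change 0.70 ± 0.07 (SE), adjusted p = 1.4e-06). Per exon length Idh2 to Idh3a was 1.25 to 1.86 in pancreas and 4.13 to 4.66 in tumour, a ratio chosen after its values were seen and not tested. Of 9 genes of the cytosolic NADH shuttles 2 rose and 4 fell. Got1, the cytosolic aspartate aminotransferase, rose (log2 fold change 0.43 ± 0.08 (SE), adjusted p = 3.3e-04), while Slc25a12, a mitochondrial aspartate-glutamate carrier, fell (log2 fold change -0.50 ± 0.06 (SE), adjusted p = 6.0e-06). Gpd1l, a relative of glycerol 3-phosphate dehydrogenase, fell as well (log2 fold change -0.38 ± 0.09 (SE), adjusted p = 0.00173).

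**Figure D4:**
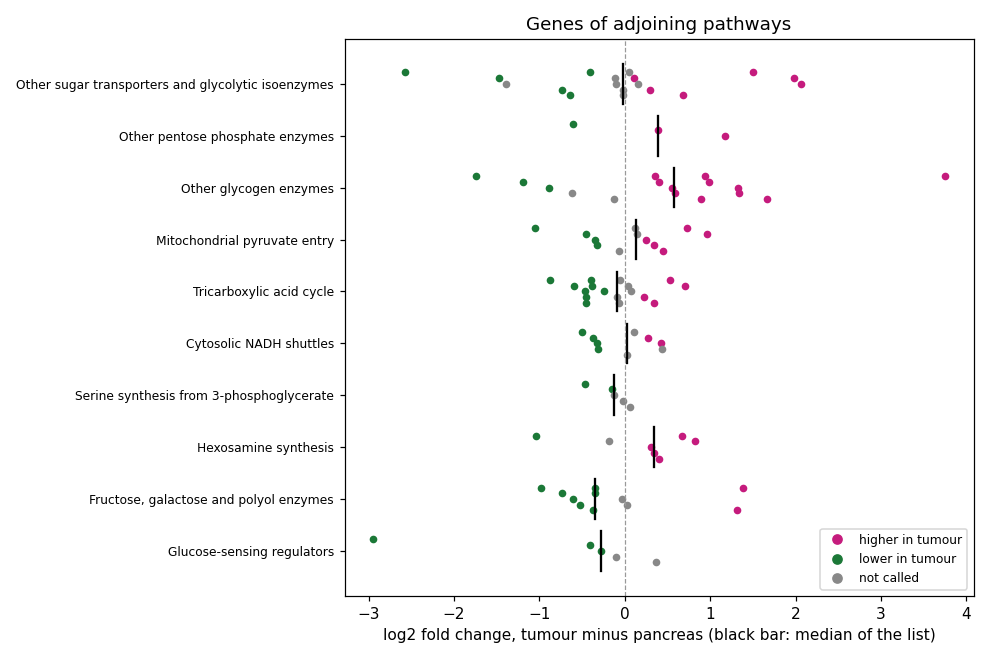
Log2 fold change, tumour minus pancreas, of the 103 tested genes in 10 lists of adjoining pathways, coloured by call, with a black bar at each list's median. The glycogen list centres at 0.57 with Stbd1 at the far right, and the fructose, galactose and polyol list centres at -0.35.

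Branches that leave glycolysis at other points gave no common direction. Of 7 hexosamine genes, which make the sugar donor for protein glycosylation, 5 rose and 1 fell. The paired first enzymes of that branch moved apart: Gfpt1 rose (55.5 ± 6.71 CPM in pancreas and 98.5 ± 2.71 CPM in tumour; log2 fold change 0.83 ± 0.07 (SE), adjusted p = 2.1e-07) and Gfpt2 fell (22.9 ± 4.13 CPM in pancreas and 11.1 ± 1.56 CPM in tumour; log2 fold change -1.04 ± 0.13 (SE), adjusted p = 1.0e-05). Oga, which removes the sugar from proteins, rose (log2 fold change 0.67 ± 0.06 (SE), adjusted p = 2.3e-07). Per exon length Gfpt1 to Gfpt2 was 1.07 to 1.64 in pancreas and 4.25 to 6.28 in tumour, again chosen after its values were seen and not tested.

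Serine synthesis, which starts at 3-phosphoglycerate, had no gene higher and 2 of 5 lower. Psat1, its aminotransferase, fell (188 ± 30.1 CPM in pancreas and 136 ± 2.82 CPM in tumour; log2 fold change -0.47 ± 0.08 (SE), adjusted p = 2.8e-04). Phgdh, the first enzyme, fell slightly with overlapping groups (log2 fold change -0.15 ± 0.05 (SE), adjusted p = 0.0172), a call that scaling by library size alone ended (adjusted p = 0.394).

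Of 11 fructose, galactose and polyol genes 7 fell and 2 rose, with a median of -0.35. The genes that rose were Sord, sorbitol dehydrogenase (69.8 ± 7.07 CPM in pancreas and 183 ± 4.50 CPM in tumour; log2 fold change 1.39 ± 0.06 (SE), adjusted p = 7.9e-10), and Galm, the galactose mutarotase (22.7 ± 3.63 CPM in pancreas and 56.4 ± 3.24 CPM in tumour; log2 fold change 1.31 ± 0.09 (SE), adjusted p = 4.8e-08). Pmm2, which makes mannose 1-phosphate, fell (log2 fold change -0.73 ± 0.06 (SE), adjusted p = 3.0e-07). Of 5 glucose-sensing regulators 3 fell and none rose. Txnip, a glucose-induced brake on glucose uptake, fell with overlapping groups (586 ± 106 CPM in pancreas and 442 ± 33.0 CPM in tumour; log2 fold change -0.41 ± 0.11 (SE), adjusted p = 0.00444). Mlx, the partner of the glucose-sensing transcription factors, fell slightly (log2 fold change -0.28 ± 0.09 (SE), adjusted p = 0.0168), and scaling by library size alone ended that call (adjusted p = 0.105).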

How the data were processed

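RNA was sequenced from 5 pancreas and 5 tumour libraries. The authors deposited estimated counts, 1 column per library, for 55401 genes. The submitters' processing notes name mm10, HISAT, HISAT2 and HTSeq. Versions, counting settings, the strand option and the annotation are not given in the sources used. Libraries were made from 2 µg RNA with the NEBNext Ultra kit, per the labels' protocols. Values were whole. In each library, genes with 4 counts outnumbered the mean of those with 3 and 5 by 1.69 to 2.07 times, so a fragment may add several counts and no counting interval is given. The columns are coded CTL for pancreas and COCUL for tumour, codes that the labels do not explain.

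Genes were kept by filterByExpr (minimum count 10, total 15), leaving 17548, scaled by TMM and tested with edgeR 4.0.16 in R 4.3.3 (robust quasi-likelihood F test, Benjamini-Hochberg over all tested genes, adjusted p below 0.05). CPM values use TMM-scaled library sizes, and ± is SD with n = 5 for levels and SE for fold changes. Ratios between genes used counts plus 0.5, scipy 1.17.1's exact two-sided permutation test over 252 assignments, for which 0.00794 is the smallest p, and adjustment over the 14 of 16 listed pairs with both genes tested. The fit and the filter were run on simulated counts of the 17548 genes already kept, with known changes in 200 of them. Recovered were 31 of 56 genes changed 1.5-fold, 47 of 75 changed 2-fold and 56 of 69 changed 4-fold. Of 17348 unchanged genes 8 were called. Genes below the filter were not simulated. Coordinates and exon lengths are from GENCODE M21 (55141 of 55401 identifiers found), where exon length is the union of all annotated exons. Near-identical copies were found with blastn 2.17.0. Start-site windows are from RefSeq (GRCm38.p6), with 47 of 49 symbols matched. On counts divided by 4, each pair of replicates of a group gave a chi-square per degree of freedom of at least 3.01, so none was treated as the same library. Alternatives were DESeq2 1.42.0, limma 3.58.1 (voom), other scalings and filters, counts divided by 4 and libraries left out.

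The genes, lists and tests were chosen with earlier results of these data known. The genes named were set by rule: every listed symbol, values per library for 18 fixed genes and the 5 rows with the highest and lowest called fold change, and up to 3 called genes per adjoining list with a mean of at least 5 CPM. Slc16a1, Pgd and the main Aldoa row were given per library, and Mpc1 and Mpc2 named, after their values were seen. A gene that this rule names in the adjoining lists is not reported here.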

Additional observations from a re-analysis of the deposited data

Results flagged for a closer look

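In 5 of 90 groups of 5 libraries screened, 1 library lay far from the rest relative to the group's range, where chance gives about 1 in 20. All 5 were tumour groups. Pfkfb2 stood at 73.1 CPM in tumour replicate 4 and at 58.4 to 61.8 CPM in the other tumour libraries. Pgk1 stood at 952 CPM in tumour replicate 2, above 894 to 907 CPM in the others. Tumour replicate 5 was set apart for the other 3 genes. It was lowest for Pdk2, at 13.4 CPM against 15.0 to 15.5 CPM, and lowest for G6pdx, at 63.8 CPM against 76.5 to 80.6 CPM. It was highest for Pgm2, at 51.3 CPM against 45.8 to 47.1 CPM. Leaving out tumour replicate 5 changed no call for these genes.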

How the results depend on the processing

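Of the 44 tested symbols 25 were higher and 7 lower. Across the libraries left out in turn, 25 to 26 were higher and 7 to 9 lower, and over all genes 5445 to 5749 were higher and 5628 to 5848 lower. Of the ratios 5 to 6 passed. Library-size scaling shifted the median of all genes by 0.10 on the log2 scale, and under it Pdk3 lost its call (-0.16, adjusted p = 0.0516) and Ldhb gained one (0.27, adjusted p = 0.0091). Of the 45 tested rows, Pdk3 was the only one that lost a call in any of 20 settings. Ldhb, Pdk4, Pgd and Pfkfb4 gained one in 5, 5, 4 and 1 settings, with adjusted p from 0.00117 to 0.0498 where gained. With no low-count filter Fbp1, at 0 to 11 counts per library, was called lower, a call that rests on these few counts. No result reversed in the settings tried. Without pancreas replicates 3 and 4 together, 0 ratios passed, since 3 against 5 libraries give a smallest exact p of 0.0357 (adjusted p = 0.0625), while the log2 differences of the 5 ratios kept their direction.

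The labels do not say whether the shared replicate numbers pair the libraries. Deviations of same-numbered libraries correlated by -0.02 to 0.04, so no pairing was seen in expression. Whether they were collected or handled together was not tested. With the replicate number as a block, 5587 genes were higher and 5598 lower, 25 and 8 of them among the symbols described, and 0 ratios passed, since 5 pairs allow no exact p below 0.0625 (adjusted p = 0.175).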
